A study of Mus musculus with 72 samples.

Results

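The genes described here encode the subunits and assembly factors of mitochondrial complex I. They were chosen by name: every protein-coding gene whose symbol starts with Nduf and whose mean normalised read count over the 72 libraries was above 5. Of 51 genes with such a symbol among the 55401 genes in the tables, 46 met the rule, out of 15981 protein-coding genes above the same mean. They fall into 7 core subunits, 29 accessory subunits, 8 assembly factors (Ndufaf1 to Ndufaf8) and the pair Ndufa4 and Ndufa4l2, whose names are historical, since Ndufa4 is now assigned to complex IV. The lowest member was Ndufb2, with a mean of 99.7, and the highest gene under the threshold was Ndufa11b, with a mean of 0.125, so no member lay near it. All 46 also passed the mean of 5 in each of the models below.

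Complex I, or NADH dehydrogenase, is the entry point of the respiratory chain: it oxidises NADH, passes the electrons along iron-sulfur clusters to ubiquinone and pumps protons across the inner mitochondrial membrane. The core subunits carry the flavin, the clusters and the proton channels, and those of the membrane arm are encoded by mitochondrial DNA, so that nuclear and mitochondrial genes have to be expressed together. Accessory subunits surround the core and hold it together, while assembly factors build or modify it and leave the finished complex. In skeletal muscle the complex is most abundant in oxidative fibers.

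The series compared WT mice, mice with a global Bmal1 knockout (KO) and KO mice given Bmal1 back in muscle (KO+AAV). Bmal1, whose gene symbol is Arntl, is a core transcription factor of the circadian clock and binds E-boxes. KO+AAV mice carried the same knockout and received, at postnatal day 5, an AAV9 vector with HA-tagged Bmal1 under the constitutive muscle promoter CK6. All mice were male. Gastrocnemius, a mixed but mostly fast limb muscle, was collected at ZT1, 1 h after lights on, at 10 weeks (6 WT, 6 KO, 7 KO+AAV) and at 40 weeks (5 of each). A further experiment at 10 weeks set 3 KO mice given an AAV9-CK6 vector with GFP (KO+GFP) against 3 KO controls. Lung, heart, liver and white fat at 40 weeks came from 4 KO and 4 KO+AAV mice each, with no WT. Replicates are taken as separate mice from their numbering alone, and the samples are bulk tissue, in which fewer cells of a type and less RNA per cell cannot be told apart.

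The libraries held 6754312 to 50755829 reads on genes. Arntl, counted over the whole gene, was 526 ± 94.8 in WT and 238 ± 39.8 in KO at 10 weeks (SD, n = 6 each, two-sided exact permutation P = 0.005, the smallest possible). At 40 weeks it was 564 ± 49.4 in WT and 487 ± 311 in KO (n = 5 each, exact permutation P = 0.27), because the library labelled KO replicate 2 stood at 1039 and the other libraries labelled KO at 308 to 395. Without that library the exact permutation P was 0.00794, and the 40-week counts and medians below are given with and without it. Arntl in KO+AAV gastrocnemius, at 232 ± 40.0 and 311 ± 32.9, did not separate from KO (exact permutation P = 0.77 and 0.0952), so these counts do not check the vector. The 10-week main libraries were sequenced at a pair of sites, ICBR and Novogene, and 21 members differed between sites (19 higher and 2 lower at ICBR, against 23.0% of all genes), so site was a term of the model. Other-tissue libraries that carried RNA of another tissue are named beside the results they touch.

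In 40-week gastrocnemius, more complex I genes were lower than higher in WT against KO, while most did not pass the test in either direction. Differences are log2 fold changes of WT against KO with their standard errors, from limma with Benjamini-Hochberg adjustment over 16199 genes, and a gene counts as changed at an adjusted P under 0.05. Of the 46 members, 16 were lower and 3 higher in WT, where 23.5% of all genes tested changed (11.5% lower, 12% higher). The median difference over the members was −0.18, against 0.01 over all genes, and 31 of 46 were fitted below KO, against 48.9% of all genes. At the P under 0.01 that the study used, 14 were lower and 3 higher, against 10.9% and 11.5% of all genes. WT and KO did not overlap for 10 lower members and 1 higher member, where 6.67% and 6.90% of all genes had such gaps. Leaving out 1 library at a time gave 10 to 17 calls in place of 19, with 10 without WT replicate 1, 11 without WT replicate 4 and 12 without KO replicate 5. Without the library labelled KO replicate 2 in the whole model the counts were 14 lower and 1 higher, with a median of −0.21 and 3 core, 9 accessory and 3 assembly calls. The share of all genes called in that model is not given here, so these counts alone do not show an excess. In it 11 members had a gap downwards and 1 upwards, where 8.26% and 8.77% of all genes did.

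**Figure D1:**
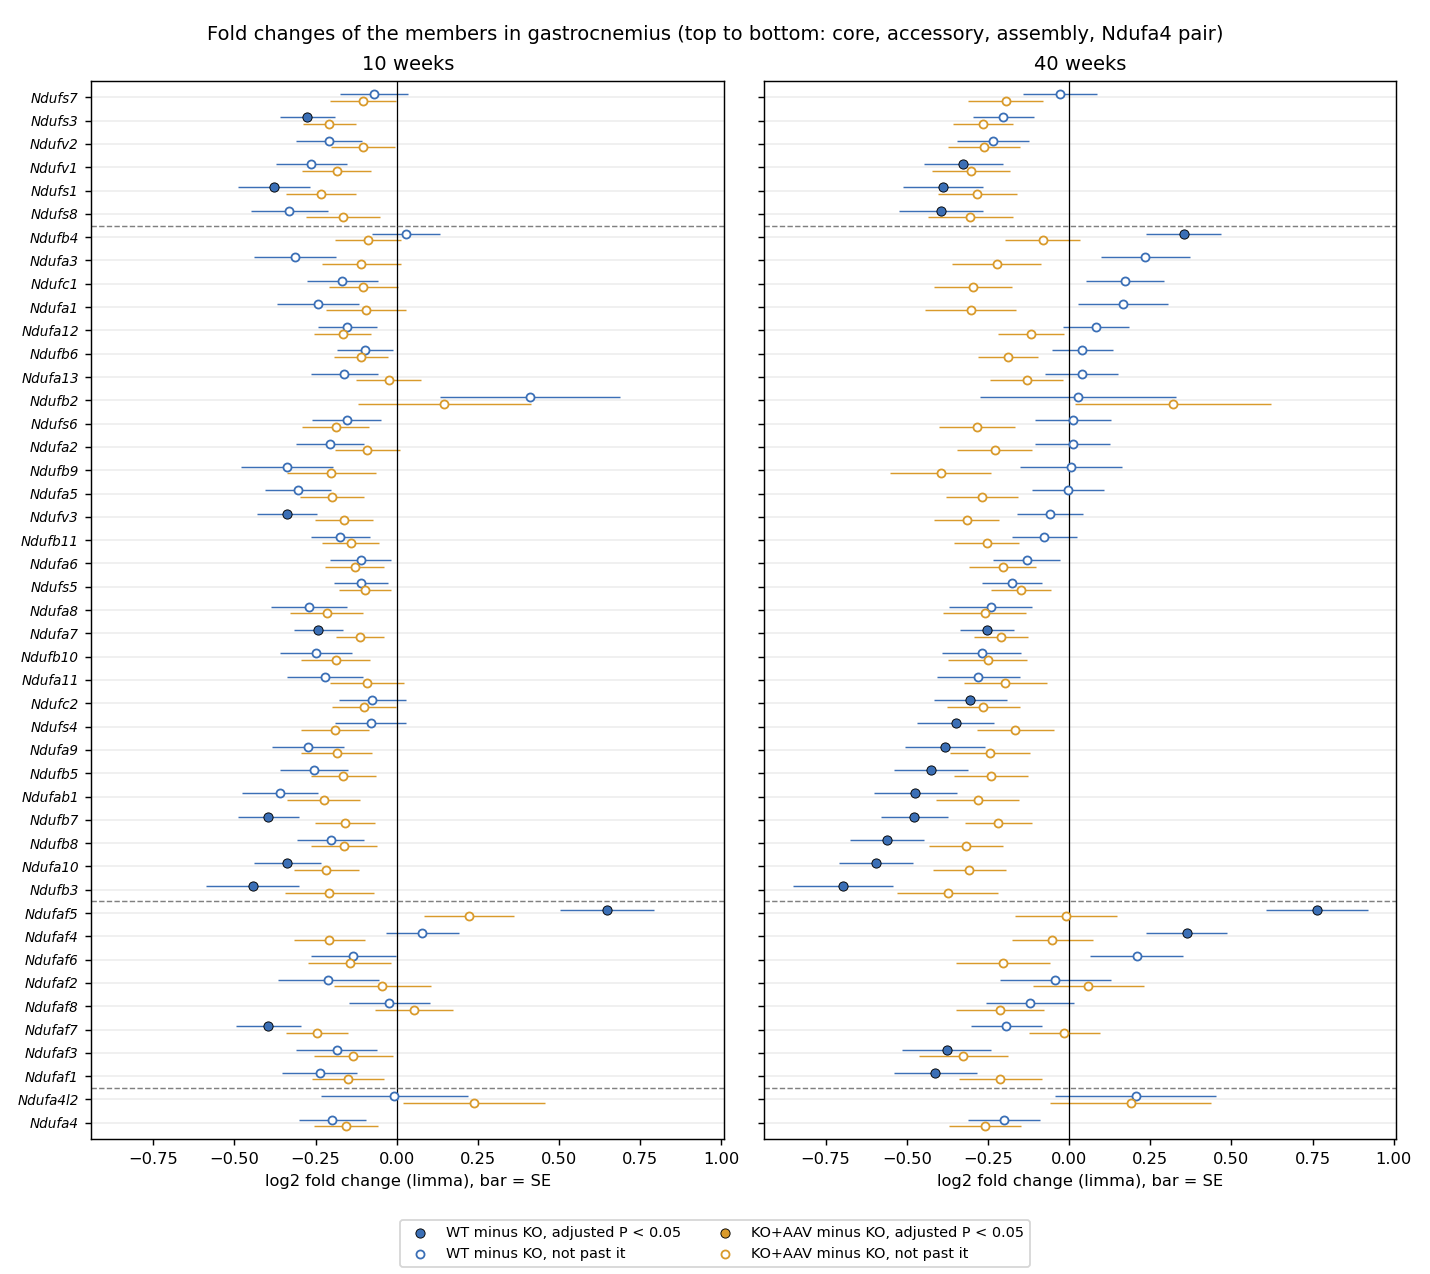
Fitted log2 fold changes of 45 of the 46 members in gastrocnemius at 10 and 40 weeks, for WT (blue) and KO+AAV (orange) against KO, grouped by class, with bars of 1 standard error and filled points for an adjusted P under 0.05 (limma). At 40 weeks the members lower in WT than in KO reach −0.70 (Ndufb3) and the highest is Ndufaf5 at 0.76.

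All 7 core subunits were fitted lower in WT at 40 weeks, with a median of −0.33, and 4 passed the test, Ndufs1, Ndufs8 and Ndufv1 among them. Ndufs1, which carries several of the clusters that pass electrons on from the flavin, had a normalised read count of 5535, 6509, 5786, 5629 and 7275 in the WT libraries and 6757, 7720, 8077, 7947 and 9804 in the KO libraries. WT replicate 5 was above the lowest KO library and the other WT libraries were below all of them (−0.39, limma adjusted P = 0.0198). Ndufs8, a cluster-bearing subunit close to the quinone site, differed by −0.39 (adjusted P = 0.0267). Ndufv1, which binds NADH and the flavin, was nearest the threshold (−0.33, limma adjusted P = 0.0484) and lost the call in 13 of 21 alternatives, that without KO replicate 2 among them. Ndufs3, at 2550 to 3016 in WT and 3127 to 3478 in KO, did not overlap between groups, yet it did not pass the test (adjusted P = 0.114). The mean over the 7 core genes, on the log2 scale, lay between 11.74 and 12.13 in WT and between 12.18 and 12.46 in KO.

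Among the 29 accessory subunits 10 were lower and 1 higher in WT at 40 weeks, and 18 were fitted below KO, with a median of −0.13. Ndufa10, a subunit with a nucleoside kinase fold on the matrix side of the membrane arm, at chr1:92439010-92473860 on the minus strand (GRCm38, as all positions here), had the smallest P. It read 3131, 3777, 3262, 3237 and 3719 in WT and 4834, 5580, 5024, 4592 and 5861 in KO. The groups were well apart, KO being a fitted 1.51-fold higher, and the difference was −0.59 ± 0.11 (limma, adjusted P = 0.000242).

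Several of the other accessory calls belong to the membrane arm as well. Ndufb8 (chr19:44548572-44555440, minus strand), widely used as a marker of assembled complex I in protein blots, read 943, 1183, 1065, 1056 and 1230 in WT and 1482, 1565, 1749, 1487 and 1794 in KO. Its groups did not overlap and differed by −0.56 ± 0.11 (limma, adjusted P = 0.000496). Ndufb7 (chr8:83566671-83571626, plus strand), a subunit on the intermembrane side, read 1182, 1607, 1487, 1539 and 1633 in WT and 1897 to 2236 in KO (−0.48 ± 0.10, adjusted P = 0.000995). Ndufb3 (chr1:58586384-58595964, plus strand), a small membrane subunit, had the largest difference of the lower members, at −0.70 ± 0.16 (limma, adjusted P = 0.00131), with means of 1066 ± 212 in WT and 1720 ± 292 in KO (SD, n = 5). Ndufb5, at −0.42, and Ndufab1, the mitochondrial acyl carrier protein, at −0.47, did not overlap either. All 6 of these accessory genes kept their call in all 21 alternatives. The remaining lower calls, from −0.25 to −0.38, were Ndufa7, Ndufa9, Ndufs4 and Ndufc2, each lost in 5 to 11 of 21.

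Ndufb4, another membrane-arm subunit (chr16:37647170-37654453, minus strand), was the accessory gene higher in WT. It read 1223, 1555, 1580, 1515 and 1540 in WT and 1227, 1040, 1001, 1206 and 1336 in KO. WT replicate 1 sat among the KO libraries and the other WT libraries were above them, and the difference of 0.35 ± 0.12 (limma, adjusted P = 0.0244) was lost in 8 of 21 alternatives, that without KO replicate 2 among them. Of its sequence, 16% of 100-base windows also occur in 1 other gene, Ndufb4c.

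The assembly factors were divided at 40 weeks: Ndufaf5 and Ndufaf4 were higher in WT and Ndufaf1 and Ndufaf3 lower, with 5 of 8 fitted below KO and a median of −0.08. Ndufaf5 (chr2:140170649-140203689, plus strand), which hydroxylates an arginine of Ndufs7 early in assembly, read 372, 393, 501, 438 and 360 in WT and 294, 183, 189, 250 and 321 in KO. Each WT library exceeded each KO library, a fitted 1.70-fold, or 0.76 ± 0.16 on the log2 scale (limma, adjusted P = 0.000586), and the call held in all 21 alternatives. Ndufaf4 (chr4:24898083-24905001, plus strand), which works with Ndufaf3 on the quinone module, read 654, 709, 517, 522 and 596 in WT and 512, 383, 412, 498 and 527 in KO. The groups overlapped at their edges, and the difference of 0.36 ± 0.12 (limma, adjusted P = 0.0323) was lost in 11 of 21 alternatives, that without KO replicate 2 among them.

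Ndufaf1, which builds the membrane arm, read 421, 538, 473, 477 and 577 in WT and 587, 591, 636, 717 and 776 in KO, with no overlap (−0.41, limma adjusted P = 0.0175). Ndufaf3 spanned 119 to 202 in WT and 176 to 242 in KO (−0.38, adjusted P = 0.0433). The other 4 did not pass: Ndufaf2, a late chaperone, at −0.04 (adjusted P = 0.89), Ndufaf6 at 0.21 (0.32), Ndufaf7, a methyltransferase, at −0.19 (0.21), and Ndufaf8, the partner of Ndufaf5, at −0.12 (0.56), all by limma. Ndufa4 differed by −0.20 (adjusted P = 0.20) and Ndufa4l2 by 0.21 (adjusted P = 0.60).

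**Figure D2:**
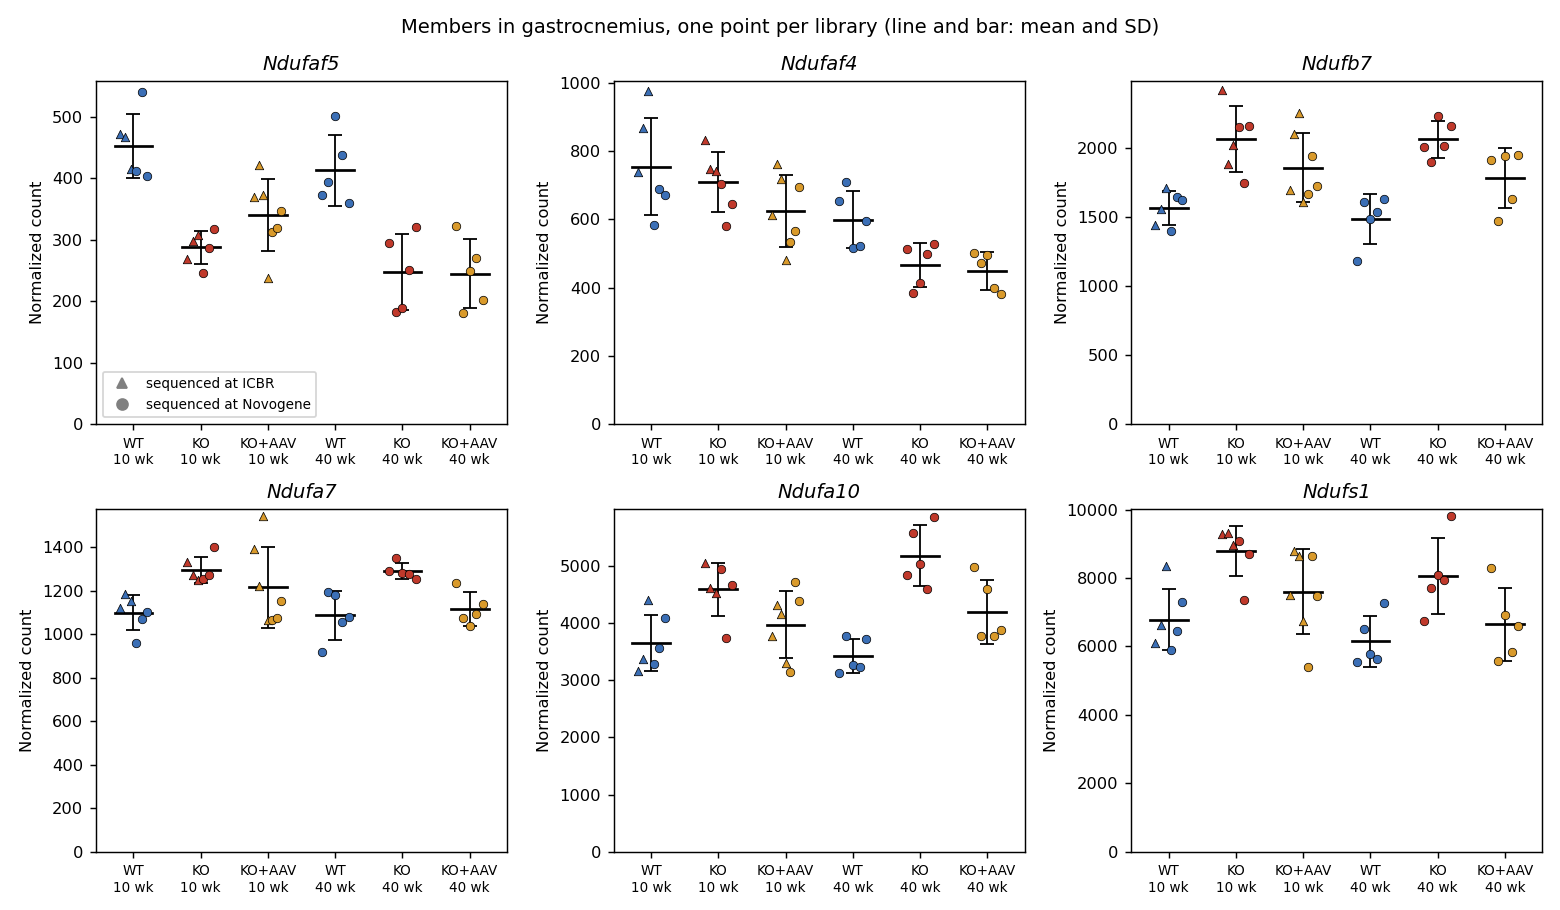
Normalised read counts of Ndufaf5, Ndufaf4, Ndufb7, Ndufa7, Ndufa10 and Ndufs1 in each gastrocnemius library, by group and age, with the group mean and SD as a line and bar and the sequencing site as the marker shape. At 40 weeks Ndufaf5 runs from 360 to 501 in WT and from 183 to 321 in KO, while Ndufs1 runs from 5535 to 7275 in WT and from 6757 to 9804 in KO.

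At 10 weeks the same comparison gave 8 members lower in WT and 1 higher, where 8.0% of all genes changed (3.74% lower, 4.26% higher). The median over members was −0.21, against −0.01 over all genes, and 42 of 46 were fitted below KO, against 51.1% of all genes. Within the ICBR libraries the median was −0.20 and within the Novogene libraries −0.21, although limma called 0 members in either site alone with 3 mice a group (12 in ICBR and 7 in Novogene at an unadjusted P under 0.05). All 7 core genes were fitted lower in WT (median −0.27), and Ndufs1 (−0.38, limma adjusted P = 0.0300) and Ndufs3 (−0.28, adjusted P = 0.0384) passed. Of the accessory genes 27 of 29 were fitted lower (median −0.22), and Ndufb7, Ndufv3, Ndufa10, Ndufa7 and Ndufb3 passed. The assembly factors had 1 call in each direction.

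Ndufb7 had the smallest P of the lower members at 10 weeks. Its lowest, median and highest counts were 1398, 1591 and 1714 in WT and 1745, 2087 and 2424 in KO. The groups met without overlapping, and the difference was −0.40 ± 0.09 (limma, adjusted P = 0.00597). Ndufv3, an accessory subunit next to Ndufv1, had 791, 957 and 1137 in WT and 965, 1225 and 1578 in KO, which overlap (−0.34 ± 0.09, limma adjusted P = 0.0180). Ndufaf7 had 239, 256 and 317 in WT and 300, 356 and 390 in KO (−0.39 ± 0.10, limma adjusted P = 0.00982), with a slight overlap. Ndufa7, a small subunit of the matrix arm, did not overlap, at 958 to 1186 in WT and 1249 to 1403 in KO (−0.24, adjusted P = 0.0450). Over all genes, 6.06% had groups that did not overlap.

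Ndufaf5 was again the member higher in WT, with 404, 442 and 540 as the lowest, median and highest WT counts and 246, 292 and 318 in KO. The groups were separate, with means of 452 ± 52.2 and 287 ± 26.5 (SD, n = 6), and the difference was 0.65 ± 0.14 (limma, adjusted P = 0.00293). Ndufaf4, higher in WT at 40 weeks, differed by 0.08 at 10 weeks (adjusted P = 0.79). The other assembly factors, Ndufaf1, Ndufaf2, Ndufaf3, Ndufaf6 and Ndufaf8, ranged from −0.24 to −0.02 with adjusted P of 0.25 or more (limma).

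Ndufa10, Ndufa7, Ndufb3, Ndufb7 and Ndufs1 were lower in WT at both ages. Of 13 alternatives at 10 weeks the call was lost in 7 for Ndufa7, in 6 each for Ndufa10 and Ndufb3, in 4 for Ndufs1 and in 2, the single-site models, for Ndufb7 and Ndufaf5. Ndufs3 and Ndufv3 lost theirs in 5 and Ndufaf7 in 2. These 5 are 62.5% of the 8 lower calls at 10 weeks and 31.2% of the 16 at 40 weeks, and Ndufaf5 was higher at both. The interaction of WT against KO with age passed for no member (limma, 5 at an unadjusted P under 0.05, 0 by edgeR and by DESeq2, and 0.370% of all genes), so the ages were not shown to differ for any of them. Ndufa3, a small membrane-arm subunit, had the smallest interaction P, at 0.55 ± 0.19 (limma, adjusted P = 0.185), followed on the same side by Ndufa1 at 0.41 (0.35) and on the other by Ndufb8 at −0.36 (0.32).

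KO+AAV gastrocnemius was compared with the same KO libraries, so its differences share those controls with the ones above. No member passed at either age. At 10 weeks 42 of 46 members were fitted below KO (48.1% of all genes), with a median of −0.15. Limma called 0 where 0.204% of all genes changed, and edgeR and DESeq2 also called 0. An unadjusted P under 0.05 was reached by 6 members (1495 of 16199 genes), and one under 0.01 by 0 (2.63% of all genes). At 40 weeks 43 of 46 were fitted below KO (47.0% of all genes), with a median of −0.24. Limma called 0 where 0.259% of all genes changed, and edgeR and DESeq2 again called 0. An unadjusted P under 0.05 was reached by 25 members (1631 of 16199 genes). At the study's P under 0.01, 3 members were lower and 0 higher, against 1.23% and 2.01% of all genes. Without the library labelled KO replicate 2 the 40-week median was −0.26 and the count 0. The core median was −0.27, the accessory median −0.24 and the assembly median −0.13.

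The smallest P at 40 weeks belonged to Ndufv3 (712 to 1114 in KO+AAV, 1010 to 1177 in KO, −0.32 ± 0.10, limma adjusted P = 0.231) and Ndufs3, a core subunit of the matrix arm (2443 to 3290 and 3127 to 3478, −0.26, adjusted P = 0.289). Both overlapped between groups. In the other direction the smallest P belonged to Ndufb2, a low-level accessory subunit, at 0.32, and to Ndufa4l2, at 0.19 (adjusted P of 0.78 and 0.86). Ndufa7 was the single member whose groups did not overlap, at 1237, 1075, 1038, 1093 and 1136 in KO+AAV and 1290, 1349, 1283, 1274 and 1252 in KO, where 1.08% of all genes had such gaps (−0.21, limma adjusted P = 0.371). Without the library labelled KO replicate 2, 5 members had a gap downwards and 0 upwards, where 1.05% and 1.14% of all genes did. At 10 weeks the smallest P were those of Ndufs3 (−0.21, adjusted P = 0.43) and Ndufaf7 (−0.25, adjusted P = 0.431), with Ndufa4l2 (0.24, adjusted P = 0.81) and Ndufaf5 on the higher side.

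Ndufaf5 was level with KO at 40 weeks: KO+AAV libraries read 322, 181, 248, 270 and 201, with a mean of 245 ± 56.0 beside 247 ± 61.9 in KO (SD, n = 5, −0.01, limma adjusted P = 0.99). At 10 weeks its KO+AAV mean was 340 ± 58.2 (n = 7), between KO and WT, with a difference from KO of 0.22 (limma, adjusted P = 0.66). Ndufaf4 differed from KO by −0.21 at 10 weeks and by −0.05 at 40 weeks, neither past the test. By fitted means, KO+AAV lay between WT and KO for 34 of 46 members at 10 weeks and for 21 at 40 weeks, where it was the lowest of the 3 groups for 23, and both 40-week counts were the same without the library labelled KO replicate 2.

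Set directly against KO+AAV at 40 weeks, WT was higher for 6 members and lower for none, where 12.5% of all genes changed (6.05% higher). The 6 were Ndufaf5, Ndufc1, Ndufb4, Ndufa1, Ndufaf4 and Ndufa3, and the median over all members was 0.02. Ndufaf5 differed by 0.77 ± 0.16 (limma, adjusted P = 0.00101) with no overlap. Ndufc1, a small membrane-arm subunit, read 1035, 1667, 1680, 1562 and 1355 in WT and 1189, 932, 1057, 954 and 1083 in KO+AAV. WT replicate 1 was the low one, inside the KO+AAV range, and the difference was 0.47 ± 0.12 (limma, adjusted P = 0.0088). Ndufb4 was 1483 ± 147 in WT and 1095 ± 84.5 in KO+AAV (0.43 ± 0.12, adjusted P = 0.0107), and Ndufaf4 600 ± 83.4 and 449 ± 56.3 (0.41 ± 0.12, adjusted P = 0.0245), both without overlap. Ndufaf6 did not overlap either, at 265 to 389 and 224 to 245, and missed the threshold (limma adjusted P = 0.0561). In all, 5 members had such gaps, where 11.7% of all genes did. Leaving out 1 library at a time gave 3 to 11 members, with 3 without WT replicate 2 and 11 without WT replicate 1, and leaving the library labelled KO replicate 2 out of the model gave 7. At 10 weeks no member passed (limma, 3 at an unadjusted P under 0.05, 0 by edgeR and 1 by DESeq2, where 5.15% of all genes changed), and Ndufaf5 came closest (0.42 ± 0.14, adjusted P = 0.0707), followed by Ndufaf4 at 0.29 (0.133). On the lower side the smallest P were those of Ndufb7 (−0.24, limma adjusted P = 0.14) and Ndufv3 (−0.18, 0.296).

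Age alone moved few members. Between 10 and 40 weeks limma called 0 members in WT (7 at an unadjusted P under 0.05, 0 by edgeR and 1 by DESeq2, where 0.148% of all genes changed), with a median of 0.00. The smallest P there were those of Ndufa3 (0.51, adjusted P = 0.194) and Ndufb9 (0.56, adjusted P = 0.215) upwards and of Ndufb8 (−0.27, adjusted P = 0.569) and Ndufa4l2 (−0.59, adjusted P = 0.576) downwards. In KO 2 members were lower at 40 weeks, where 8.31% of all genes changed: Ndufaf4, at 579 to 832 at 10 weeks and 383 to 527 at 40 weeks (−0.48 ± 0.13, limma adjusted P = 0.0191), and Ndufa4l2, a hypoxia-induced relative of Ndufa4, at 75.2 to 141 and 41.2 to 99.3 (−0.80 ± 0.25, adjusted P = 0.0469). Ndufaf4 did not overlap between ages, where 4.94% of all genes had such gaps, and without the library labelled KO replicate 2 neither gene passed. In KO+AAV 2 were lower where 8.53% of all genes changed: Ndufa4l2 (−0.85 ± 0.25, limma adjusted P = 0.0316) and Ndufaf6, an assembly factor of the early matrix arm (215 to 376 and 224 to 245, −0.48 ± 0.15, adjusted P = 0.0375). All 40-week gastrocnemius libraries came from Novogene, so age was set against the 10-week libraries through the site term, and with Novogene libraries alone none of these 4 calls remained. The interaction of KO+AAV against KO with age passed for 0 members (limma, 0 at an unadjusted P under 0.05, 0 by edgeR and DESeq2, 0.00617% of all genes), with the smallest P for Ndufaf7 (0.23, adjusted P = 0.93), Ndufaf4 (0.16, 0.95), Ndufaf8 (−0.26, 0.93) and Ndufc1 (−0.19, 0.94).

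The members moved together from mouse to mouse within a group. In 40-week WT, replicate 2 was above its group's median for 41 of 46 members and replicate 1 for 3. In 40-week KO the extremes were replicate 5, with 42, and replicate 4, with 2, and in 40-week KO+AAV replicate 1, with 41, and replicate 2, with 3. The counts of members called or fitted lower are thus not 46 separate observations.

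**Figure D3:**
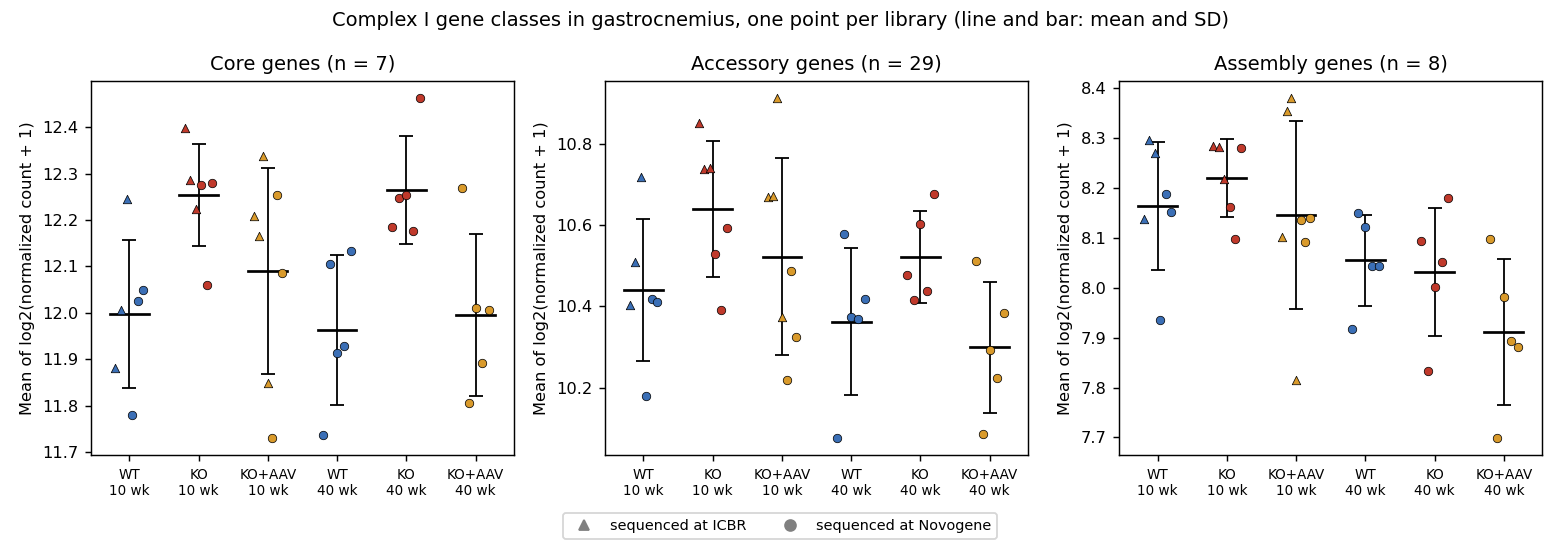
Mean log2(normalised read count + 1) over the core, accessory and assembly genes in each gastrocnemius library, by group and age, with the group mean as a line. At 40 weeks the core mean lies between 11.74 and 12.13 in WT, between 12.18 and 12.46 in KO and between 11.81 and 12.27 in KO+AAV.

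Listed slow and oxidative fiber genes were fitted on the same side as most members, with none of those listed past the test. The summed count of a list of 8 (Myh7, Myh2, Tnnt1, Tnni1, Tnnc1, Myl2, Myl3 and Atp2a2) ran from 12667 to 81070 in WT and from 10651 to 162959 in KO at 10 weeks. At 40 weeks it ran from 21894 to 85450 in WT, from 56155 to 264039 in KO and from 17405 to 116548 in KO+AAV. All 8 genes were fitted lower in WT than in KO at 40 weeks, with a median of −2.28, and limma called 0 of them (3 at an unadjusted P under 0.05, 0 by edgeR and 1 by DESeq2). Without the library labelled KO replicate 2 their median was −2.22. In KO+AAV all 8 were fitted lower than in KO at both ages, with medians of −0.32 and −1.74, and 0 were called. Of 5 skeletal muscle genes 1 was lower in WT than in KO at 40 weeks by limma, edgeR and DESeq2. Without the same library that list's call was Mb. Limma also called 2 adipocyte, 1 hepatocyte and 1 T and B cell gene higher in WT there. It called 1 endothelial, 1 cardiomyocyte, 1 atrial and 1 brown adipocyte gene lower. Without the KO library with the highest slow-fiber sum at each age, 13 members changed between WT and KO at 40 weeks (median −0.16) and 3 at 10 weeks (median −0.20). The full model gave 19 (median −0.18) and 9 (median −0.21). Leaving out any 1 WT or KO library at 40 weeks gave 10 to 17, and the share of all genes changed in the reduced model is not given here. The part of fiber makeup in these differences was not tested.

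Promoters were searched because Bmal1 binds E-boxes and because complex I genes share other well-known regulatory motifs. RefSeq windows from 250 bases before to 50 after the start (GRCm38.p6) were found for 40 of the 46 members. Stretches of 30 bases around a match are shown for Ndufv1 and Ndufa7, the members with an E-box, for the Ndufaf5 and Ndufaf4 genes that were higher in WT at 40 weeks, and for Ndufb7 and Ndufb8, which were lower, each 5′ to 3′ on the gene's strand with the motif in capitals.
Ndufv1, E-box, chr19:4012907-4012936, minus strand: agcagagggcgaCACGTGagcctggtttac
Ndufa7, E-box, chr17:33824488-33824517, plus strand: gcggagaggagtCACGTGagcaggggatgc
Ndufaf5, NRF1 motif, chr2:140170651-140170680, plus strand: tagtcccgttgGCGCATGCgcctaatagaa
Ndufaf4, NRF1 motif, chr4:24897959-24897988, plus strand: cccagatgtctGCGCATGCgcctgtgcgga
Ndufb7, ETS motif, chr8:83566727-83566756, plus strand: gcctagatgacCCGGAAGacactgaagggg
Ndufb8, YY1 motif, chr19:44555393-44555422, minus strand: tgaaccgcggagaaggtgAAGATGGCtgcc

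The E-box CACGTG was in 2 of 40 member windows (5%), against 8.09% of the windows of 27025 genes. It lay 169 bases before the Ndufv1 start and 72 before the Ndufa7 start, where the neighbouring gene Rps28 also begins on the other strand. GCGCATGC, the core of the motif bound by NRF1, a regulator of nuclear genes for respiration, was in 5 of 40 (12.5%, Ndufa6, Ndufa8, Ndufa11, Ndufaf4 and Ndufaf5), against 3.05% of all genes. This core was chosen after a longer form of the motif had been searched and found in fewer windows. It lay 113 bases before the Ndufaf4 start and 16 after that of Ndufaf5, where in each it overlaps its own match on the other strand, and a separate match lay 1 base after the Ndufaf4 start. AAGATGGC, bound by YY1, was in 8 of 40 (20%), against 3.19%, at 10 to 38 bases after the start in each: Ndufa3, Ndufa9, Ndufaf8, Ndufb8, Ndufc1, Ndufs4, Ndufs6 and Ndufs7. CCGGAAG, bound by ETS factors such as GABPA, was in 6 of 40 (15% against 9.93%), and AAGGTCA, bound by estrogen-related receptors, in 3 (7.5% against 5.38%). Both strands were searched, none of these motifs contains another, and a match describes the letters and not binding.

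Other genes of the pathway gave a mixed background. Of 10 tested assembly factors with other names, Foxred1 and Tmem70 were lower in WT than in KO at 10 weeks and those 2 and Acad9 at 40 weeks, with Foxred1 at −0.67 and −0.59 (limma, adjusted P = 6.15e-06 and 7.08e-05). Acad9, which works with Ndufaf1, was also lower in KO+AAV than in KO at 40 weeks (−0.39, limma adjusted P = 0.0330), the 1 call of that list there. The 7 mitochondrially encoded complex I subunits, mt-Nd1 to mt-Nd6 and mt-Nd4l, were fitted higher in WT than in KO at 10 weeks, with a median of 0.19 and 0 called by limma (2 at an unadjusted P under 0.05, 1 by edgeR and 2 by DESeq2), the opposite side from the nuclear core genes. At 40 weeks 5 of the 7 were fitted higher in WT and 0 passed (0 at an unadjusted P under 0.05, by edgeR and by DESeq2). All 7 were fitted lower in KO+AAV than in KO at both ages, with 0 called there by limma, edgeR or DESeq2 and 0 at an unadjusted P under 0.05, and against KO+AAV 2 of 7 were higher in WT at each age, those at 40 weeks being mt-Nd1 (0.51, limma adjusted P = 0.0293) and mt-Nd2 (0.49, limma adjusted P = 0.0489). Of the 8 complex II genes, 6 were lower and Sdhaf3 higher in WT at 40 weeks (median −0.41), and limma called 0 at 10 weeks (6 at an unadjusted P under 0.05, 0 by edgeR and 1 by DESeq2). Of 16 regulators of mitochondrial genes, Ppargc1a was higher in WT at 40 weeks (0.67, limma adjusted P = 0.0094) and Gabpb1 (−0.57, adjusted P = 0.0031) and Tfam (−0.30) lower. Without the library labelled KO replicate 2, the WT against KO calls of these lists at 40 weeks were 4 lower among the other assembly factors, 5 lower and 0 higher in complex II, and 2 lower and 2 higher among the regulators.

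The vector alone was examined in KO+GFP against KO controls at 10 weeks. There 41 of 46 members were fitted higher with the GFP vector (50.6% of all genes), with a median of 0.15. All 7 core genes were fitted higher (median 0.13). Ndufb3 was the 1 member that passed, where 3.09% of 14477 genes changed (1.83% higher). It read 626, 649 and 650 with GFP and 450, 477 and 408 without, with no overlap (0.53 ± 0.09, limma adjusted P = 0.00855), and missed the threshold without KO+GFP replicate 3. At P under 0.01, 6 members were higher: Ndufa8, Ndufab1, Ndufb3, Ndufc2, Ndufs4 and Ndufs8, where 4.37% of all genes were. Groups did not overlap for 18 higher members and for Ndufaf6, which was lower (−0.35, adjusted P = 0.14), where 11% of all genes had a gap upwards and 12.4% one downwards.

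In the same libraries the slow and oxidative fiber list summed to 36274 to 37264 with GFP and to 7256 to 17185 without, with all 8 genes fitted higher and 6 past the test. Macrophage genes were higher with GFP too, with 4 of 6 past the test (limma, median 1.28) and sums of 491 to 742 with GFP and 229 to 349 without, and Schwann cell genes lower, with 3 of 5 past it (median −0.97) and sums of 423 to 531 and 1063 to 1265. The part of these lists in the member differences was not tested. The regulators Ppara (1.44, limma adjusted P = 0.0084) and Esrrg (0.95, adjusted P = 0.024), both activators of oxidative metabolism, and the complex II subunit Sdhb (0.54, adjusted P = 0.0088) were higher too. The direction over the members with the GFP vector, upwards, was the reverse of that with the Bmal1 vector, which was compared with other KO libraries in another table, and the difference between the vectors was not tested.

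**Figure D4:**
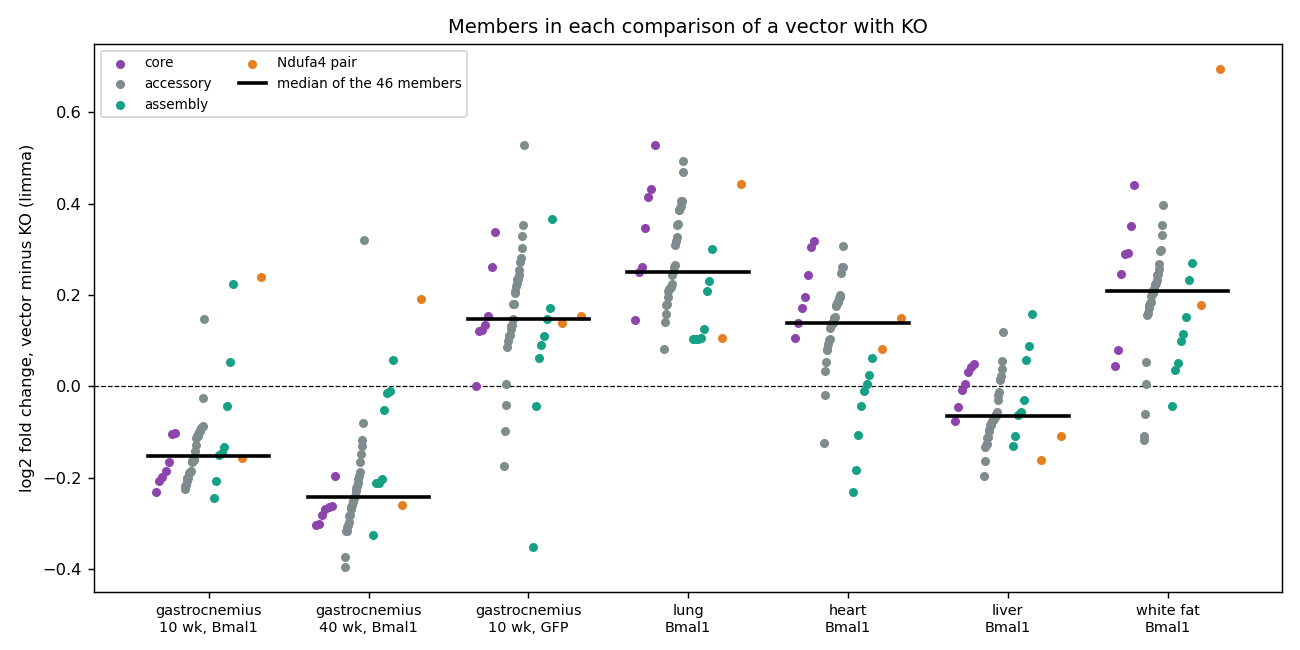
Fitted log2 fold changes of the 46 members for the GFP vector against KO controls and for the Bmal1 vector against KO in gastrocnemius, lung, heart, liver and white fat, with points coloured by class and a line at the median of the 46. The medians are −0.15 and −0.24 in gastrocnemius with Bmal1, 0.15 with GFP, 0.25 for lung, 0.14 for heart, −0.06 for liver and 0.21 for white fat, and Ndufb3 with GFP is the single call.

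Outside skeletal muscle no member passed between KO+AAV and KO. In lung all 46 members were fitted higher in KO+AAV (50% of all genes), with a median of 0.25. The class medians were 0.35 for core, 0.26 for accessory and 0.12 for assembly genes. Limma called 0, where 0.0237% of all genes changed, and edgeR called 0 and DESeq2 2. An unadjusted P under 0.05 was reached by 21 members (2517 of 21072 genes). Leaving out 1 library at a time gave 0 to 4, with 4 without KO+AAV replicate 2. Ndufv1 had the smallest P: it read 3904, 4034, 5051 and 3868 in KO and 5267, 4915, 6327 and 6220 in KO+AAV. KO replicate 3 alone reached the KO+AAV range (0.43 ± 0.11, limma adjusted P = 0.186). The groups did not overlap for Ndufaf1 and Ndufaf3, both higher in KO+AAV, where 3.91% of all genes had such gaps.

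Heart muscle genes were fitted higher with the members in lung. A cardiomyocyte list of 5 genes summed to 4750 to 43507 in KO lungs and to 65804 to 225828 in KO+AAV lungs, with 5 of 5 genes fitted higher, and an atrial list of 4 to 556 to 12662 and 17546 to 66198. The lung's own alveolar and airway list stood at 2366690 to 3295970 in all 8 libraries. Other lists leaned too: adipocyte genes were fitted higher in 6 of 6 (median 3.43), skeletal muscle genes in 4 of 4 (2.05) and brown adipocyte genes in 4 of 5 (1.54), and macrophage genes lower in 5 of 6 (−0.42). Limma called 0 genes of any of these lists in lung, at an unadjusted P under 0.05 it had 5 of 5 cardiomyocyte, 4 of 4 atrial, 0 adipocyte, 3 skeletal muscle, 2 brown adipocyte and 2 macrophage genes, edgeR called 0 and DESeq2 4, 2, 0, 2, 0 and 1. Heart muscle in the mouse extends into the pulmonary veins, and the part of these lists in the member differences was not tested.

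In heart the median over members was 0.14, with 39 fitted higher in KO+AAV (48.2% of all genes). Limma called 0 (0 at an unadjusted P under 0.05, 0 by edgeR and DESeq2, 0% of all genes). KO replicate 2 carried hepatocyte genes, at a summed 1467360 against 272 to 546 in the other hearts, and KO replicate 4 and KO+AAV replicate 1 had the highest atrial sums. KO replicates 2 and 4 were above their group's median for 3 and 2 of the 46 members, and KO replicates 1 and 3 for 44 and 43. Without those 3 libraries the median turned to −0.12. Ndufs1 (0.32), Ndufv1 (0.31) and, on the other side, Ndufaf8 (−0.18) and Ndufb2 (−0.12) had the smallest P, all with a limma adjusted P of 0.86.

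In liver the median was −0.06, with 33 of 46 fitted lower (49.6% of all genes). Limma called 0 (0 at an unadjusted P under 0.05, 0 by edgeR and DESeq2, 0% of all genes). Ndufa8 (−0.20) and Ndufa3 (−0.16) had the smallest P on the lower side and Ndufaf4 (0.16) and Ndufaf1 (0.09) on the higher, with a limma adjusted P of 0.997. Arntl was 950 ± 201 in KO+AAV and 628 ± 45.5 in KO liver (SD, n = 4, exact permutation P = 0.0286, the smallest possible). In white fat the median was 0.21, with 42 fitted higher (46.6% of all genes). Limma called 0 (0 at an unadjusted P under 0.05, 0 by edgeR and DESeq2, 0% of all genes). KO replicate 2 carried epididymal genes, at a summed 809624, and KO+AAV replicate 3 brown fat genes, at 28911 against 265 to 720 in the other white fat libraries. The first was above its group's median for 3 of 46 members and the second for 45, and without both the median was −0.04. Ndufaf4 (0.27), Ndufa1 (−0.11) and Ndufb2 (−0.12) were among the members with the smallest P in white fat, with a limma adjusted P of 0.91. The largest fitted difference was that of Ndufa4l2, at 0.69 ± 0.60, a gene whose KO libraries ran from 48.6 to 388 (limma, adjusted P = 0.907).

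Levels were compared between genes and tissues per length, in TPM, the share of length-scaled reads that sets every library to the same total, from the recovered reads, with no test. In KO mice at 40 weeks the members together had a median of 15957 TPM in heart (9426 to 16617), 8266 in gastrocnemius (7892 to 9814), 8099 in white fat (5312 to 8459), 5741 in liver (5604 to 6296) and 3394 in lung (3386 to 4217). The lowest heart was KO replicate 2, with the hepatocyte genes, and the lowest white fat library KO replicate 2, with the epididymal genes. Lung lay below every other tissue. The ranges of heart and gastrocnemius, and of white fat and liver, overlapped only through those 2 libraries, while gastrocnemius and white fat overlapped with and without them. Without the KO hearts with hepatocyte or high atrial genes (replicates 2 and 4) and that white fat library, the medians were 16558 in heart (n = 2) and 8356 in white fat (n = 3, 7843 to 8459). WT gastrocnemius had a median of 7827 (6534 to 8835), and KO gastrocnemius 8918 without the library labelled KO replicate 2. Mitochondrially encoded genes took 11.6% to 24.8% of reads in KO hearts, and with those genes left out of the total the ratio of heart to gastrocnemius was 2.59 in place of 1.93, each a ratio of medians over libraries. Novogene sequenced the 40-week gastrocnemius and ICBR the remaining tissues, so tissue and site cannot be told apart in that ratio.

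Among the 5 KO tissues and WT gastrocnemius at 40 weeks, 38 of 46 members were highest in heart and 37 were lowest in lung, and 37 and 37 without those heart and white fat libraries. The core and accessory medians stood above the assembly median in every tissue. Core, accessory and assembly medians were 355, 359 and 29.8 TPM in KO heart (400, 386 and 31.5 without replicates 2 and 4), 88.7, 83.1 and 15.5 in KO lung, and 303, 175 and 18.8 in KO gastrocnemius. Ndufs1 was the lowest core gene in every group, and Ndufb2 was the lowest accessory gene in every group, from 0.735 TPM in WT gastrocnemius to 3.34 in KO lung among these tissues.

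The widest range belonged to Ndufa4l2, at 49.0 ± 4.51 TPM in lung and 3.56 ± 0.67 in liver, a ratio of 13.8 (SD, n = 4). Its place was unlike that of Ndufa4, which had 1150 ± 235 TPM in heart and 201 ± 23.6 in lung. Ndufa10 followed, at 391 ± 107 in heart and 45.8 ± 6.25 in lung (8.53), and Ndufs1, at 215 ± 63.2 and 26.2 ± 3.61 (8.19). Without KO heart replicates 2 and 4 the heart means were 1272, 464 and 240 TPM for Ndufa4, Ndufa10 and Ndufs1. The narrowest were Ndufc2 (2.06), Ndufa7 (1.85) and the assembly factor Ndufaf8 (1.37, from 33.8 in WT gastrocnemius to 46.1 in white fat).

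Ndufaf5 and Ndufaf6 were the 2 members highest in WT gastrocnemius. WT libraries were available for gastrocnemius alone, so tissue and genotype cannot be told apart in this rank. Ndufaf5 stood there at 34.4 ± 4.52 TPM (30.7 to 41.8), followed by KO heart at 21.1 ± 5.38 and KO gastrocnemius at 20.1 ± 4.87, which overlapped each other. White fat had 13.5 ± 2.35, lung 9.72 ± 0.95 and liver 7.12 ± 0.54. Ndufaf6 went from 37.6 in WT gastrocnemius to 9.16 in lung.

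**Figure D5:**
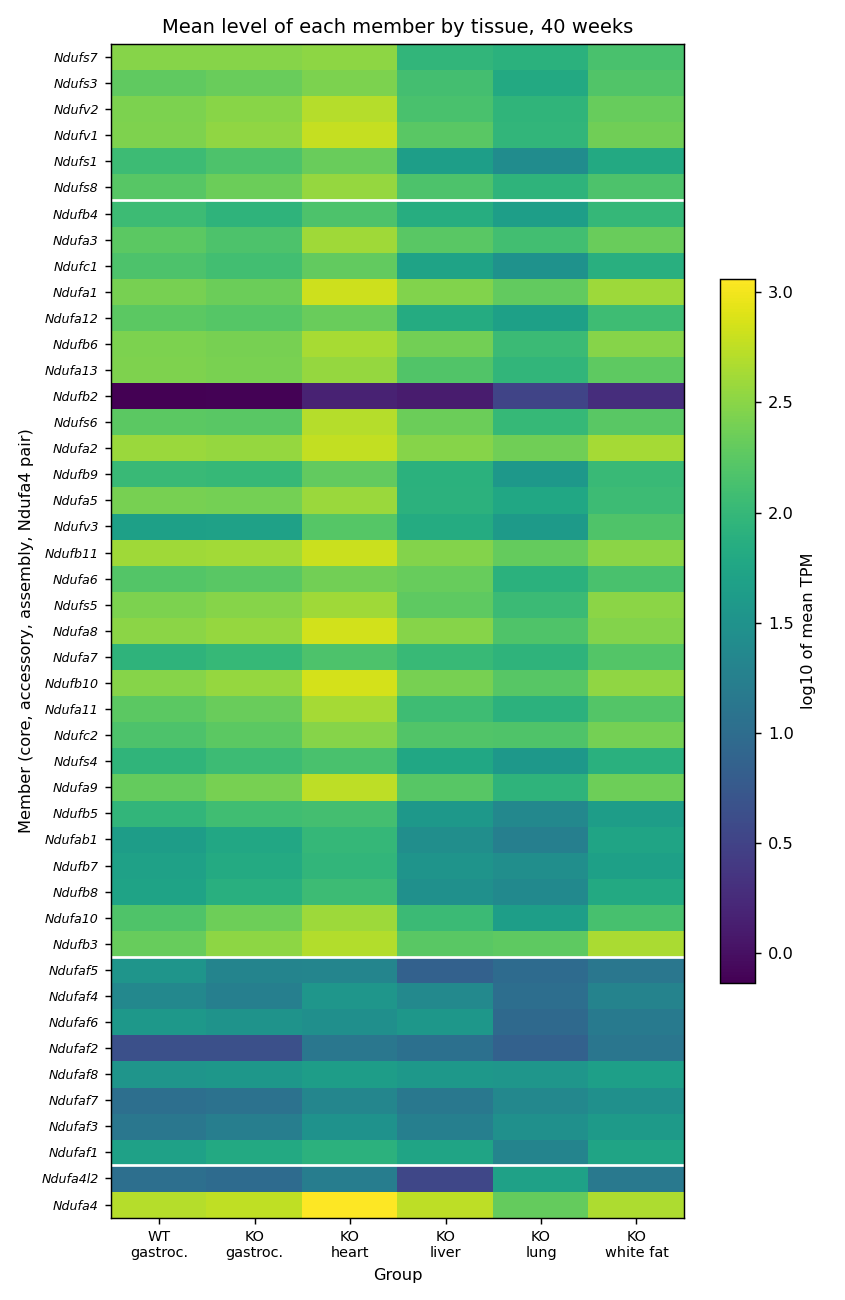
Heat map of log10 mean TPM of 45 of the 46 members in WT and KO gastrocnemius and in KO heart, white fat, liver and lung at 40 weeks, with members grouped by class and every library of a group included, KO heart replicates 2 and 4 and KO white fat replicate 2 among them. Over all 46, heart is highest for 38 members and lung lowest for 37, and the darkest row is Ndufb2, from 0.735 TPM in WT gastrocnemius to 3.34 in KO lung.

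Of the 5 Nduf-named genes that are not members, Ndufa11b missed the mean and the other 4 are not annotated as protein-coding in GENCODE vM21: Ndufb4c, Ndufs6b, Ndufab1-ps and Ndufb1-ps. Ndufb1-ps had a mean of 1148 over all libraries and was 566 ± 158 in WT and 676 ± 215 in KO gastrocnemius at 10 weeks (SD, n = 6, −0.24, limma adjusted P = 0.26), and it passed no comparison. Reads of some members cannot be separated from neighbours or copies, since the strand used in counting is not given in the sources used here. Exons of Ndufaf2 overlap those of B230220B15Rik over 65.6% of their length, those of Ndufb6 overlap Smim27 over 39.0%, and those of Ndufa13 overlap Tssk6 over 30%. These lie on opposite strands. Overlaps on the same strand, which do not depend on the strand setting, were Ndufb9 with Gm49356 (19.5%), Ndufb8 with Gm20538 (4.26%) and Ndufb2 with Gm42420 (2.58%). The effect of any overlap on the counts was not tested.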

How the data were processed

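Poly(A) RNA was sequenced in 72 mouse libraries. Per the labels and the methods, the authors aligned reads with HISAT2 to GRCm38/mm10, counted them per gene with HTSeq and divided them by DESeq2 size factors, and these normalised counts are the deposited values, a signal per gene rather than raw counts. Whole reads were recovered for 100% of values (tolerance 0.05 read). Libraries held 6754312 to 50755829 reads. The counting annotation and strand are not given in the sources used here. GENCODE vM21 gave symbols for 99.5% of genes, exon lengths for TPM and coordinates.

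Genes with a mean above 5 over the libraries of a model were tested as log2(value + 1) with limma 3.58.1 (R 4.3.3, eBayes with trend), since the deposited values are not counts, and Benjamini-Hochberg adjustment covered all genes tested. Gastrocnemius formed 1 model of 34 libraries with 6 groups and sequencing site, and KO+GFP and each other tissue a model of their own. edgeR 4.0.16 and DESeq2 1.42.0 on recovered reads, another pseudocount (0.5), no filter, a mean above 50, TMM scaling, a replicate block, no site term, single sites, 2 groups alone and leaving out libraries were alternatives. A fold change on this scale understates that of low genes. Differences of Arntl were tested by exact permutation. Limma P values weigh a difference against the spread between libraries within groups, pooled over the groups of a model and moderated over genes. In simulated data 200 genes were changed by 1 log2 unit up or down, more than any member differed here. Limma called 70.0% of them for WT against KO at 40 weeks, 63.5% for KO+AAV against KO at 10 weeks, 64.0% for GFP and 51.0% for liver. Of its calls 6.04%, 1.55%, 7.91% and 8.11% were false, in the same order. Recovery at the smaller sizes seen for the members was not simulated.

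Members and lists were chosen with earlier results of these data known. Members given in full were, per comparison and direction, the 3 called ones with the lowest P (2 uncalled ones where none was called), the 3 widest and narrowest tissue ranges, Ndufa4, Ndufa4l2, Ndufb1-ps and Ndufaf1 to Ndufaf8. The values of 1 core gene are not reported here, although it enters the counts and medians. The remaining members with values of their own were named after their values were seen. From other lists at most the 2 smallest P were named, with exceptions named after their values were seen.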

Additional observations from a re-analysis of the deposited data

Results flagged for a closer look

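Among the groups of 4 to 10 libraries examined for a single value far from the rest (Dixon's 95% limit), 15 (3.83% of them) had one, where chance gives about 1 in 20. KO lung replicate 3 held 5 of them. Its mean over the members was 10.79 on the log2 scale (others up to 10.57), and its normalised counts were 1758 for Ndufa1, 2519 for Ndufab1, 2820 for Ndufs3 and 5051 for Ndufv1, each above the other KO lungs. The same library had the highest adipocyte sum of the KO lungs, at 28246, and brown adipocyte sum, at 10388, and their part was not tested. In KO+AAV liver replicate 4 the mean over the members was 11.09 on the log2 scale (others up to 10.91) and Ndufc2 was at 2215. KO+AAV heart replicate 1 was low for Ndufa9, at 20344, and for Ndufb3, at 6089, and it was a library with a high atrial sum, at 94099.

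In gastrocnemius 6 values stood apart. Arntl was 1039 in the library labelled KO replicate 2 at 40 weeks, above the WT range, and 480 in WT replicate 5. Ndufb4 was low in WT replicate 1 at 40 weeks, at 1223. At 10 weeks Ndufb8 was high in KO replicate 1, at 1962, Ndufs1 was low in KO replicate 6, at 7370, and Ndufs8 was high in WT replicate 4, at 2019. No member passed the test of whether WT against KO or KO+AAV against KO differed between ages.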

How the results depend on the processing

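Of 274 alternatives for counts of called members and levels, 235 kept the main value within 1.5 times, and of 232 medians 231 kept theirs. Of 1236 values for single members 1071 kept their direction and their side of the threshold, 156 fell short of it, 5 came past it and 4 turned. The cause of the moves below was not tested, except that fewer libraries enter where some are left out. The share of all genes called in each alternative is not given here or above. Moves in the counts of called members thus cannot be read as particular to the members.

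Between WT and KO at 10 weeks, 9 members were called in the model reported, 4 without a filter, 0 in either site alone, 17 with the 2 groups alone and 3 without the KO libraries with the most slow-fiber signal. At 40 weeks 19 became 10 with the 2 groups alone and 10 to 17 when 1 library was left out, with 10 without WT replicate 1, 11 without WT replicate 4 and 12 without KO replicate 5. WT against KO+AAV gave 0 at 10 weeks and 1 by DESeq2 or without the KO library with high Arntl, and 6 at 40 weeks with 3 to 11 when 1 library was left out. Age in WT gave 0, and 1 by DESeq2. Age in KO gave 2, then 1 without a filter, by edgeR, by DESeq2 or without the site term, and 0 with Novogene alone, with 2 groups alone, without the slow-fiber libraries or without the KO library with high Arntl. Age in KO+AAV gave 2, then 7 without the site term and 0 without a filter, with Novogene alone or with 2 groups alone. GFP gave 1, and 0 to 1 when 1 library was left out, and lung 0, with 2 by DESeq2 and 0 to 4 when 1 library was left out. The heart median of 0.14 became −0.12 without 3 libraries.

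Heart over gastrocnemius, liver and lung rose to 2.59, 4.23 and 7.49 without mitochondrially encoded genes in the total, and heart over white fat to 2.96 or, as CPM, 2.75. Arntl between WT and KO at 40 weeks differed by 0.26 to 0.70 when 1 library was left out, and passed (exact permutation) without KO replicate 2. Between KO+AAV and KO it differed by −0.60 to −0.16, and passed without KO replicate 4 or 5, and between WT and KO+AAV by 0.81 to 0.92. In white fat Ndufa1 ran from −0.24 to 0.093 when 1 library was left out, turning without KO replicate 2 or KO+AAV replicate 2, and Ndufb2 from −0.28 to 0.076, turning without KO replicate 2. Without both libraries with other tissue Ndufb2 was at 0.052.

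With a replicate block, 4 members were called between WT and KO at 10 weeks and 16 at 40 weeks, and 1 between WT and KO+AAV at 10 weeks and 6 at 40 weeks. The numbers share only a label: correlations of same-numbered deviations ran from −0.11 to 0.26 at 10 weeks, −0.11 to 0.37 at 40 weeks and −0.38 to 0.58 in white fat. The block changed no other count. For age it was not run, since numbers at the 2 ages name different mice. The alternatives that leave out the slow-fiber, high-Arntl, heart and white fat libraries, for levels too, were chosen after seeing the data.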
